A study of Mus musculus with 8 samples.

Results

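This section describes what vitamin C (vitC, L-ascorbic acid) did to gene expression in mouse ESCs between 16 and 32 hr after the cells left serum for 2i. Of the 8 RNA-seq libraries of the series, 6 were compared here, and the pair taken at 4 hr was set aside and is given only as a reference. The cells were E14, a single ESC line of 129/Ola background grown without feeders and with LIF throughout. In the 2i group, serum medium was replaced by serum-free medium with LIF, the MEK inhibitor PD0325901, and the GSK3 inhibitor CHIR99021, and RNA was taken at 16, 24, and 32 hr. In the vitC group the same medium also held 17 µM vitC, and RNA was taken at the same hours. Each combination of time and treatment was 1 library. The 3 time points therefore served as pairs. A p-value here sets the vitC difference against the spread between pairs, moderated across genes, and not against a spread between replicate cultures. Moderation draws each gene's spread toward that of other genes, so a gene with uneven ratios over the 3 pairs can still pass.

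VitC keeps the iron of 2-oxoglutarate-dependent dioxygenases in its active, reduced state. These enzymes include the TET proteins, which oxidize 5-methylcytosine, the JmjC histone demethylases, the collagen prolyl hydroxylases, and the prolyl hydroxylases that mark HIF1A for destruction. HIF1 is a transcription factor of low oxygen that binds the letters ACGTG or GCGTG near its targets and raises genes of glucose uptake, glycolysis, and lactate export. In ESCs, vitC is known for increasing TET activity and the loss of DNA methylation.

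Among 14640 genes tested, 381 passed an adjusted p of 0.05 in edgeR's quasi-likelihood test with the time point as a block, which is 2.6% of the genes. Of these, 304 were higher with vitC (2.08% of the genes tested) and 77 were lower (0.526%). The genes of glucose breakdown and the histone genes were prominent among the falls, whereas Atf7ip, Sall4, Tet1, Tet3, Dazl, and several mitochondrially encoded genes were among the rises. All 381 genes moved the same way in all 3 pairs, as did 20.2% of all tested genes in the upward and 20.4% in the downward direction. For 329 of the 381 the 3 vitC libraries did not overlap with the 3 libraries in 2i, a separation seen for 10.2% of all tested genes upward and 7.96% downward. The shared direction and the separation follow in large part from the call itself, which used the same libraries. Most changes were moderate, with a median absolute log2 fold change of 0.83 over the called genes and 117 genes at 1 or more (102 higher and 15 lower).

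**Figure D1:**
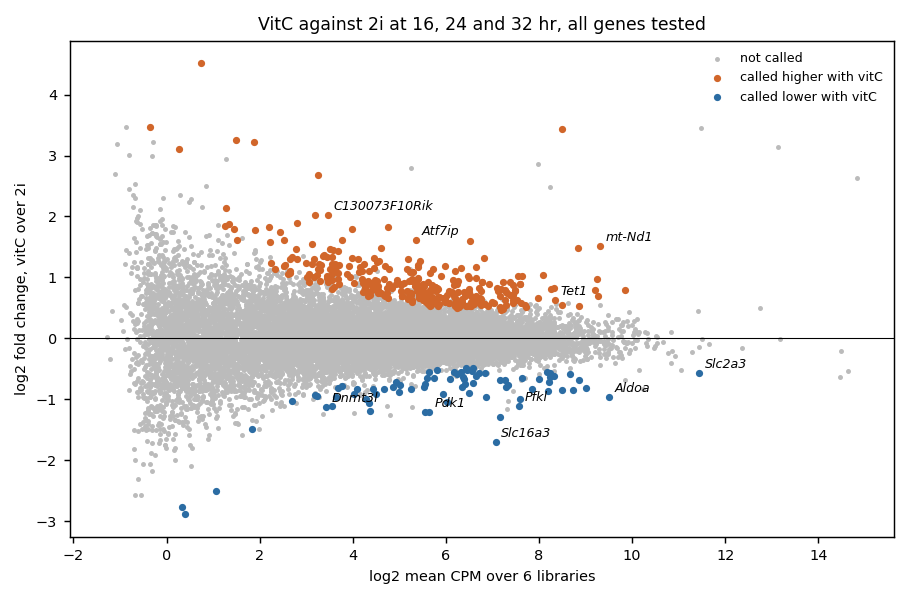
Log2 fold change of vitC over 2i (vertical axis) against the log2 mean CPM of 6 libraries (horizontal axis) for all 14640 genes tested. Orange points are the 304 genes called higher, blue points the 77 called lower, and grey points did not pass an adjusted p of 0.05.

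The totals were 12940716 to 18434932 counts in 2i and 4753528 to 11893512 with vitC, so that 3 counts, taken as the floor, came to 0.163 to 0.631 CPM (counts scaled to the library total). The libraries of a pair ran on the same lane, which was lane 7 at 16 and 32 hr and lane 8 at 24 hr. Reads on Lars2, Gm23935, and ENSMUSG00000093077 took 0.206%, 5.92%, and 0.564% of the 2i libraries at 16, 24, and 32 hr and 7.11%, 6.37%, and 4.21% of the vitC libraries, so this share moved with treatment at 16 and 32 hr and hardly at 24 hr. Lars2 alone was higher with vitC at 24 hr as well, at 9212 CPM in 2i and 20100 CPM with vitC. With the share as a covariate 49 genes passed, 45 of them from the 381. That fit has 1 residual degree of freedom less, so a lost call there does not by itself show a smaller effect. Because the share hardly differed at 24 hr, the vitC term of that fit leans mostly on the 24 hr pair. A kept call can thus reflect a large ratio at 24 hr, and neither a kept nor a lost call settles the part of the share. With the features removed from the table all 381 passed again, among 465. Removing them leaves the counts of the other genes as they were, so it cannot take away a library difference that goes with the share. The count also rested on the single pairs: 46 genes passed without the 16 hr pair, 183 without the 24 hr pair, and 726 without the 32 hr pair. In 33 genes the call held whichever pair was left out. Of the genes described below these were Slc16a3, Pdk1, Narf, Pfkl, Hist1h4a, Hist1h2be, Nr0b1, Igfbp2, Atf7ip, Sall4, Dazl, Col1a1, Crebbp, Ulk1, Brpf3, Anp32b, Zfp951, C130073F10Rik, Ankrd1, Serpina3m, and ENSMUSG00000093337, and every other gene called below lost its call without at least 1 pair. ES cell markers were all present, with a summed level of 1783 to 2002 CPM in 2i and 1600 to 1658 CPM with vitC over 8 genes. Of the 8, only Zfp42 was called (lower), against 0.526% of all genes.

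Glucose uptake, glycolysis, and lactate formed the list with the largest share of called falls among all lists: 10 of 24 tested genes were lower, against 0.526% of all genes, and 1 was higher. The median log2 fold change of the 24 genes was -0.50, against -0.01 over all genes tested, and 21 of the 24 lay below 0. By pair, the median log2 ratio of the list was -0.65, -0.55, and -0.31 at 16, 24, and 32 hr, and it was -0.11 in the 4 hr pair. When GC content and exon length were entered as offsets, the list's median was -0.51, with 10 called lower and 0 called higher. With the share of Lars2 features as a covariate the median was -0.49, and Slc16a3 and Pfkl passed (adjusted p = 0.00026 and 0.0028), while the other 8 falls and the rise of Hk1 did not, from Pdk1 at 0.055 to Hk1 at 0.87.

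Slc16a3 encodes MCT4, which exports lactate from the cell, and had the largest fall among called protein-coding genes with a mean of 5 CPM or more. It was at 242, 157, and 212 CPM in 2i at 16, 24, and 32 hr and at 69.6, 38.8, and 83.8 CPM with vitC. The lowest 2i library thus stood well above the highest vitC library. With vitC the level was 3.26-fold lower (log2 fold change -1.70, standard error [SE] 0.14, adjusted p = 0.00061). At 4 hr the 2 libraries were close to each other, at 248 CPM in 2i and 219 CPM with vitC. Slc16a3 was called in all 14 alternative fits.

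Pdk1, a kinase that shuts off pyruvate dehydrogenase and so keeps pyruvate out of the mitochondrial cycle, was at 84.5, 57.7, and 67.5 CPM in 2i and at 30.0, 23.4, and 36.7 CPM with vitC. The groups did not overlap, and the fall was 2.32-fold (log2 fold change -1.22, SE 0.15, adjusted p = 0.0056). Pfkl, the liver-type subunit of phosphofructokinase, which catalyses the committed step of glycolysis, was at 248, 284, and 250 CPM in 2i and at 124, 101, and 137 CPM with vitC. Every vitC library was below every 2i library for Pfkl as well (log2 fold change -1.12, SE 0.14, adjusted p = 0.0056). Aldoa, an aldolase that splits fructose bisphosphate, was at 1011, 895, and 969 CPM in 2i and at 439, 420, and 640 CPM with vitC, also without overlap (-0.96, SE 0.14, adjusted p = 0.0084). In all of Slc16a3, Pdk1, Pfkl, and Aldoa the ratio was nearest to 0 at 32 hr.

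The other 6 called falls of the list spanned log2 fold changes from -0.91 to -0.58, and none of them overlapped between the groups. They were Aldoc (a second aldolase, -0.91), Pgk1 (phosphoglycerate kinase, -0.91), Eno1 (enolase, -0.73), Tpi1 (triosephosphate isomerase, -0.71), Ldha (the lactate dehydrogenase subunit that favours lactate, -0.64), and Slc2a3 (the glucose transporter GLUT3, -0.58). Slc2a3 was at 3982, 2934, and 3065 CPM in 2i and at 2432, 2020, and 2199 CPM with vitC. The glucose importer thus lay lower in each vitC library than in any 2i library, with an adjusted p of 0.037. Hk1, a hexokinase that traps glucose in the cell, went the other way, from 58.6, 77.5, and 91.2 CPM in 2i to 103, 102, and 119 CPM with vitC (log2 fold change 0.53, adjusted p = 0.047). This rise lost its call with those offsets (0.37, adjusted p = 0.12). The second hexokinase, Hk2, was at 325, 367, and 394 CPM and at 335, 338, and 358 CPM with vitC, with overlapping groups (log2 fold change -0.07, adjusted p = 0.79). Pkm, the pyruvate kinase, was at 1603, 1908, and 1082 CPM in 2i and 856, 616, and 1112 CPM with vitC. Its 32 hr pair did not share the direction of the earlier pairs, and it did not pass (-0.83, adjusted p = 0.10). Counts of Gapdh, Pgk1, and Pgam1 are uncertain, since these genes have many processed copies in the genome among which reads can be lost.

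**Figure D2:**
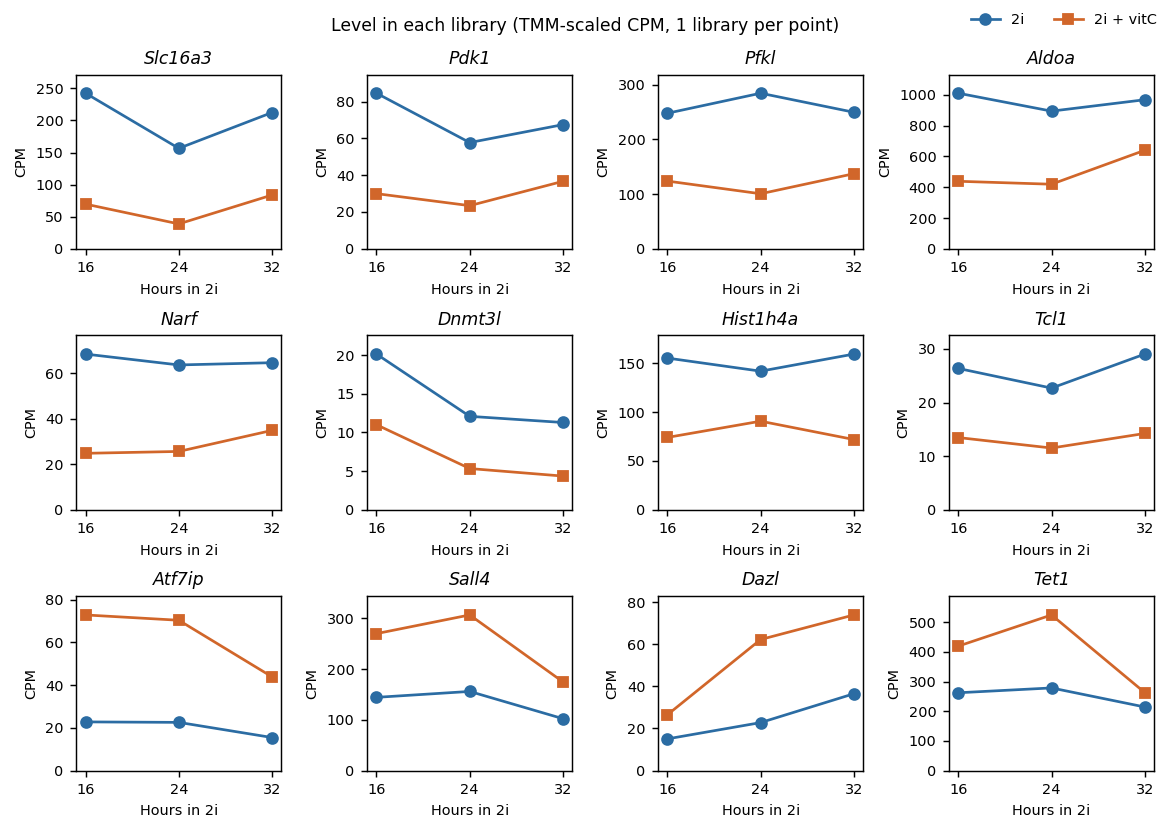
CPM scaled by TMM factors (vertical axes, from 0) against hours in 2i (horizontal axes) for 12 genes, with 1 library per point, 2i in blue circles and 2i with vitC in orange squares. In Slc16a3, Pdk1, Pfkl, Aldoa, Narf, Dnmt3l, Hist1h4a, Tcl1, Atf7ip, and Sall4 the 2 groups do not overlap, and in Dazl and Tet1 they do although the vitC library is higher in each pair.

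The promoters of the called falls in glycolysis and among the other HIF1 targets were searched for the HIF1 core, because HIF1 is a known regulator of such genes. The windows of RefSeq (GRCm38.p6) hold 250 bases before and 50 after a start site, and the letters ACGTG or GCGTG were counted on both strands. Of 13 genes called lower in these 2 lists, 12 matched a window by symbol, and 11 of the 12 had at least 1 core in at least 1 of their windows. By window, 16 of 19 held it (84.2%), against 43.8% of all 32851 windows, whose GC content was not matched. These lists hold known HIF1 targets, so a high share was likely whatever vitC did. The uncalled members of the lists were not searched, and some genes count with several windows. The E-box CACGTG, which contains one of the cores, was found in 1 of the 12 genes and in 7.15% of all windows. Among the 10 largest falls, 8 matched and 8 held the core, and among the 10 largest rises 5 matched and 3 held it. By window these were 10 of 13 (76.9%) for the falls and 4 of 6 (66.7%) for the rises, so both shares were above that of all windows. The 250 bases before the start are shown for the 4 leading genes, 5′ to 3′ on the gene's own strand, with each core, on either strand, in capitals.
Slc16a3 (chr11:120948817-120949066, plus strand): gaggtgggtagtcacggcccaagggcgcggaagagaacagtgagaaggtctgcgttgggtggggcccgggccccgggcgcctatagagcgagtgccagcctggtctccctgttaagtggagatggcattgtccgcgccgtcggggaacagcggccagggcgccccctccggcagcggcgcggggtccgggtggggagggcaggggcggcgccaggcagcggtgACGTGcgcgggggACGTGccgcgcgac
Pdk1 (chr2:71872974-71873223, plus strand): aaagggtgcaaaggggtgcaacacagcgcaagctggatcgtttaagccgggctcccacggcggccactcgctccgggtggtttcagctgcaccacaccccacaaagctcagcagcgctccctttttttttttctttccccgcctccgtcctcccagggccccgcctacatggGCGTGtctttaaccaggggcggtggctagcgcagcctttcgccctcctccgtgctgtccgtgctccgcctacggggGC
Narf (chr11:121236986-121237235, plus strand): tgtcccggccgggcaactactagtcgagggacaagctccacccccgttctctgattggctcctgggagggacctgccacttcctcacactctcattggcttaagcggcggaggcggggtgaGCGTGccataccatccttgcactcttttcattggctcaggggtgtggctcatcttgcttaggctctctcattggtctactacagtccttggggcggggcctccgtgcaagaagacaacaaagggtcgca
Pfkl (chr10:78009808-78010057, minus strand): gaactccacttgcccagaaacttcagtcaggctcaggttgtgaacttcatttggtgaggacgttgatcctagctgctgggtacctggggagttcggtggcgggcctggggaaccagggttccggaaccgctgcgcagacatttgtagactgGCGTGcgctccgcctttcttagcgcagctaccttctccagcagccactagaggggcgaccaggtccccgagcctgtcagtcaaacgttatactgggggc
In Slc16a3 both cores read ACGTG and lie close to the start, at -27 and -14 counted from the start site to the first letter. In Pdk1 one GCGTG lies at -78 and a second runs across the start, so that only its first letters are in the stretch shown. The window of a second Pdk1 start held 0 cores. Narf and Pfkl have 1 core each, at -129 and -99. A match describes the letters only and does not show that HIF1 bound there.

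HIF1 targets outside glycolysis moved less. Of 30 tested, 3 were called lower, against 0.526% of all genes, and 0 higher. The median log2 fold change was -0.22, with 23 of the 30 below 0, and -0.13 with the share of Lars2 features as a covariate. Narf, a prelamin-binding protein named for that property, was at 68.4, 63.6, and 64.6 CPM in 2i and at 24.8, 25.6, and 34.8 CPM with vitC, without overlap (log2 fold change -1.21, SE 0.15, adjusted p = 0.0056). P4ha1, the catalytic subunit of collagen prolyl hydroxylase and itself an enzyme that uses vitC, was at 102, 69.9, and 71.2 CPM in 2i and at 42.1, 34.1, and 51.0 CPM with vitC, again without overlap (-0.92, adjusted p = 0.013). Ddit4, an inhibitor of mTORC1 that also belongs to the ATF4 list, was at 341, 351, and 335 CPM and at 280, 205, and 224 CPM with vitC (-0.55, adjusted p = 0.047). Its call was lost with the GC and length offsets (adjusted p = 0.065). With the Lars2 covariate Narf passed (adjusted p = 0.049), whereas P4ha1 (0.19) and Ddit4 (0.11) did not.

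Replication-dependent histone genes, whose mRNAs end in a stem-loop instead of a poly(A) tail and are made in S phase, were lower as a group. Of 50 tested, 13 were called lower, against 0.526% of all genes, and 0 higher. The median log2 fold change was -0.51, and 45 of 50 lay below 0. With the GC and length offsets the median was -0.38 and 9 were called, and in the 4 hr pair the median was -0.30. With the share of Lars2 features as a covariate the median was -0.50, but 12 of the 13 lost their call, Hist1h4i (-0.59), Hist1h4k (-0.60), and Hist1h4h (-0.25) among them with smaller values, and Hist1h2be passed (adjusted p = 0.042). Hist1h4a, an H4 gene, was at 156, 142, and 160 CPM in 2i and at 74.1, 90.8, and 72.0 CPM with vitC (log2 fold change -0.96, SE 0.13, adjusted p = 0.0064). It did not overlap between the groups, and it was lower already in the 4 hr pair (149 CPM in 2i and 54.9 CPM with vitC). Hist1h4i had the largest fall of the list among called genes, from 95.9, 46.6, and 123 CPM to 41.1, 34.5, and 46.5 CPM (-1.05, adjusted p = 0.012). For Hist1h4k the 2i library at 24 hr (167 CPM) was lower than the vitC library at 32 hr (168 CPM), so that the groups overlapped slightly, although the vitC library was lower in each pair (-0.9972, adjusted p = 0.0089). The H2B genes Hist1h2bb, Hist1h2bc, Hist1h2be, Hist1h2bf, Hist1h2bg, and Hist1h2bk ranged from -0.85 to -0.59, and the H3 genes Hist1h3e and Hist2h3b were at -0.85 and -0.77. The remaining called genes of the list, Hist1h4j and Hist1h4h, were at -0.76 and -0.62. Histone genes are short and near-identical, so the split of reads among copies is uncertain. The lists of DNA replication (26 tested, median -0.06) and mitosis (21 tested, median -0.05) held 0 called genes, with Mcm6 at -0.18 and Top2a at -0.08.

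**Figure D3:**
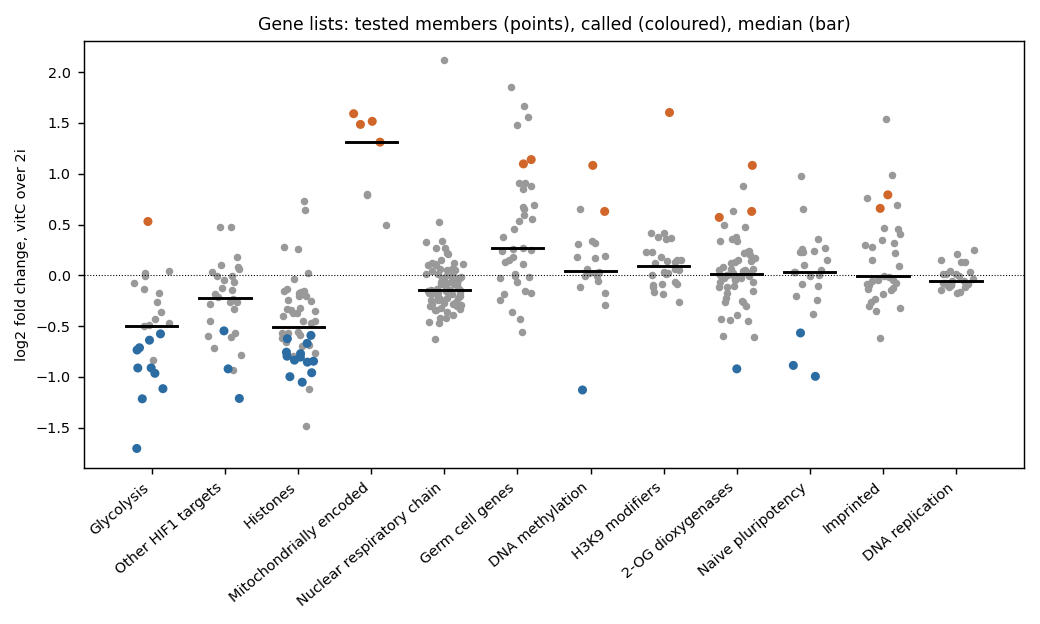
Log2 fold change of vitC over 2i (vertical axis) for the tested members of 12 gene lists (points), with called genes in orange (higher) or blue (lower) and the list median as a bar. The medians of the glycolysis (-0.50) and histone (-0.51) lists lie below 0, and that of the 7 mitochondrially encoded genes (1.31) lies above it.

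Genes that act on DNA methylation changed in part. Of 20 tested, Tet1 and Tet3 were called higher and Dnmt3l lower, against 2.08% and 0.526% of all genes, and the median was 0.05. With the share of Lars2 features as a covariate none of the 3 passed (edgeR adjusted p = 0.16 for Tet1, 0.48 for Tet3, and 0.24 for Dnmt3l), although each kept its direction. Tet3 was at 8.25, 15.4, and 10.3 CPM in 2i and at 23.9, 30.7, and 17.0 CPM with vitC, without overlap (log2 fold change 1.08, SE 0.19, adjusted p = 0.017). Tet1 was at 262, 278, and 214 CPM in 2i and at 419, 525, and 263 CPM with vitC (0.63, SE 0.13, adjusted p = 0.035). The 32 hr vitC library of Tet1 lay within the range of the 2i libraries, and without the 24 hr pair the adjusted p was 0.24. Tet2 was at 125, 160, and 158 CPM and at 185, 236, and 147 CPM with vitC, higher at 16 and 24 hr but not at 32 hr, and it did not pass (0.34, adjusted p = 0.24).

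Dnmt3l, the cofactor of the de novo methyltransferases, was at 20.2, 12.1, and 11.3 CPM in 2i and at 11.004, 5.33, and 4.35 CPM with vitC. In both treatments it was far below its 4 hr level (124 CPM in 2i and 120 CPM with vitC), and at each later time the vitC library was the lower one (log2 fold change -1.13, SE 0.21, adjusted p = 0.018). The methyltransferases themselves were not called. Dnmt3b was at 96.7, 77.5, and 66.4 CPM and at 86.0, 69.1, and 58.8 CPM with vitC, a log2 ratio of -0.17 in each of the 3 pairs (adjusted p = 0.45). Dnmt3a had a log2 fold change of 0.02 (adjusted p = 0.96), Dnmt1, which copies methylation after replication, 0.19 (adjusted p = 0.42), and its recruiter Uhrf1 0.02 (adjusted p = 0.96). Dppa3, which keeps UHRF1 from chromatin, was at 11.4, 21.1, and 18.9 CPM and at 22.4, 27.1, and 29.0 CPM with vitC, with no overlap between the groups, but it did not pass (0.65, adjusted p = 0.071). Tdg, which excises oxidized methylcytosine, was at -0.29 and the methyl-CpG reader Mbd1 at 0.31, and neither passed (adjusted p = 0.59 and 0.32).

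Atf7ip, a nuclear partner that stabilizes the H3K9 methyltransferase SETDB1, shared the lowest adjusted p of all genes with Slc16a3. It was at 22.8, 22.5, and 15.5 CPM in 2i and at 72.8, 70.3, and 43.9 CPM with vitC. The vitC libraries stood clear of the 2i libraries, and the ratio hardly varied over the pairs (log2 ratios of 1.67, 1.63, and 1.49). The level was 3.05-fold higher with vitC (log2 fold change 1.61, SE 0.13, adjusted p = 0.00061), and it was called in all 14 alternative fits, the Lars2 covariate included. At 4 hr it was at 21.9 CPM in 2i and 36.7 CPM with vitC. Atf7ip was the only called gene among 28 tested H3K9 modifiers and heterochromatin repressors, whose median was 0.09. Over all genes tested 2.08% were called higher and 0.526% lower. Setdb1 itself was at 174, 157, and 152 CPM and at 173, 194, and 170 CPM with vitC (0.15, adjusted p = 0.52). The other members ranged from -0.27 (the demethylase Kdm4b) to 0.42 (Atf7ip2 and Wiz).

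Of 56 tested iron- and 2-oxoglutarate-dependent dioxygenases, the enzymes that can use vitC, 3 were called higher and 1 lower, with a median of 0.02. Over all genes tested 2.08% were called higher and 0.526% lower. Beside Tet1, Tet3, and the falling P4ha1, the RNA demethylase gene Fto rose from 39.6, 41.6, and 36.6 CPM to 61.4, 68.0, and 47.4 CPM (log2 fold change 0.57, adjusted p = 0.041). The groups did not overlap, and the call was lost with the GC and length offsets (adjusted p = 0.086). None of the 4 called dioxygenase genes passed with the Lars2 covariate, and all 4 kept their direction.

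Germ cell genes, many of which are silenced by promoter methylation in ESCs, had a median log2 fold change of 0.27 over 38 tested, with 27 above 0 and 2 called higher. Among all genes tested 48.3% lay above 0 and 2.08% were called higher. Their median in the 4 hr pair was 0.00, and with the share of Lars2 features as a covariate it was 0.13. Dazl, an RNA-binding protein of germ cells, was at 15.0, 22.8, and 36.5 CPM in 2i and at 26.5, 62.2, and 73.9 CPM with vitC. It rose with the hours in both treatments, and the vitC library was the higher one at each of the 3 times, although the 16 hr vitC value lay within the 2i range (log2 fold change 1.10, SE 0.15, adjusted p = 0.0077). Brdt, a testis bromodomain protein, was at 3.45, 3.20, and 2.75 CPM in 2i and at 7.09, 7.25, and 6.36 CPM with vitC, without overlap (1.14, SE 0.26, adjusted p = 0.048). With the Lars2 covariate Dazl passed (adjusted p = 0.0070) and Brdt did not (0.58). Among 34 imprinted genes, Peg3 (0.66, adjusted p = 0.018) and Peg10 (0.79, adjusted p = 0.021), both expressed from the paternal allele, were called higher, while the median was -0.01. Peg10 was at 673, 731, and 551 CPM in 2i and at 1187, 1635, and 725 CPM with vitC, and the 32 hr vitC library lay within the 2i range. Neither imprinted gene passed with the covariate (adjusted p = 0.42 for Peg3 and 0.055 for Peg10), and the median of the imprinted list was 0.11 in that fit.

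Pluripotency factors split. Sall4, a zinc finger transcription factor of the core network, was at 144, 156, and 102 CPM in 2i and at 270, 307, and 175 CPM with vitC, without overlap (log2 fold change 0.88, SE 0.11, adjusted p = 0.0057). It was the only called gene of 10 core factors, against 2.08% of all genes called higher. Pou5f1 (-0.08, adjusted p = 0.75) and Sox2 (-0.06, adjusted p = 0.84) were near 0. Of 23 naive factors, 3 were called lower, against 0.526% of all genes, and 0 higher, and the median was 0.04. Tcl1, a coactivator of AKT, was at 26.4, 22.7, and 29.1 CPM in 2i and at 13.5, 11.5, and 14.2 CPM with vitC, without overlap and with nearly the same ratio in each pair (-0.99, SE 0.16, adjusted p = 0.012). The orphan nuclear receptor Nr0b1 was at 32.2, 37.8, and 53.9 CPM and at 19.98, 18.5, and 28.0 CPM with vitC (-0.89, adjusted p = 0.013). Zfp42 (REX1) was at 100.002, 152, and 128 CPM and at 82.1, 90.6, and 80.2 CPM with vitC (-0.57, adjusted p = 0.036). Neither gene overlapped between the groups. Nanog was at -0.20 (adjusted p = 0.41). Of 17 primed genes, Nodal (-0.67, adjusted p = 0.027) and its inhibitor Lefty1 (-0.69, adjusted p = 0.038) were called lower. With the Lars2 covariate none of these called pluripotency and primed genes passed, with adjusted p of 0.058 for Sall4, 0.25 for Tcl1, and 0.10 for Zfp42. The log2 fold changes in that fit were 0.93 for Sall4, -0.998 for Tcl1, -1.07 for Nr0b1, -0.81 for Zfp42, and -0.82 for Nodal. Only that of Lefty1, at -0.30, was nearer to 0 than in the main fit.

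Mitochondrially encoded genes had the highest median of all lists. Of 13 protein genes, 7 were tested and the other 6 were listed at 0 in every library. Of the 7, mt-Nd1, mt-Nd2, mt-Nd4, and mt-Cytb were called higher, against 2.08% of all genes, and the median log2 fold change was 1.31. mt-Nd1, a subunit of complex I, was at 270, 370, and 242 CPM in 2i and at 903, 1654, and 372 CPM with vitC (log2 fold change 1.52, SE 0.23, adjusted p = 0.010). The size of the difference varied, with list medians of 1.4997, 2.05, and 0.34 at 16, 24, and 32 hr, and mt-Cytb and mt-Nd4 overlapped between the groups. mt-Co1, a subunit of cytochrome c oxidase, was not called (0.50, adjusted p = 0.27). The share of reads on Lars2, Gm23935, and ENSMUSG00000093077 was also higher in each vitC library of the 3 pairs. With it as a covariate in edgeR, all 4 called mt- genes passed (adjusted p from 0.00039 to 0.0056). That fit leans mostly on the 24 hr pair, where the list median was largest, so it does not settle the part of the share. Reads from nuclear copies of mitochondrial DNA cannot be told apart from these. The nuclear genes of the respiratory chain (80 tested, median -0.15) and of the mitochondrial ribosome (78 tested, median -0.07) held 0 called genes, with Atp5b at -0.14 and Mrpl15 at -0.11. With the covariate these list medians were -0.31 and -0.24.

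The remaining leading rises came from different families. Among called protein-coding genes with a mean of 5 CPM or more, C130073F10Rik had the largest rise, from 4.49, 3.20, and 5.50 CPM in 2i to 18.39, 15.1, and 19.8 CPM with vitC (log2 fold change 2.02, SE 0.20, adjusted p = 0.0033). Its 2 groups were far apart, and the 4 hr pair had 2.34 and 5.47 CPM. Zfp951, a zinc finger gene, followed at 2.66, 3.12, and 2.97 CPM and 9.12, 10.4, and 13.2 CPM (1.89, SE 0.24, adjusted p = 0.0057). Then came Aox3, an aldehyde oxidase (1.74), Reep6, a shaper of the endoplasmic reticulum (1.62), Prr12 (1.61), and Myrf, a membrane-bound transcription factor (1.54), all without overlap. Prr12 varied most among the pairs, with log2 ratios of 1.68, 2.83, and 0.36. With the Lars2 covariate C130073F10Rik (adjusted p = 0.017) and Prr12 (0.021) passed, and Zfp951 (0.099), Aox3 (0.095), Reep6 (0.23), and Myrf (0.18) did not. At the other end, Relt, a receptor of the TNF receptor family, fell from 5.80, 7.96, and 12.3 CPM to 3.19, 3.62, and 5.86 CPM (-1.02, adjusted p = 0.049), and its groups overlapped slightly.

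**Figure D4:**
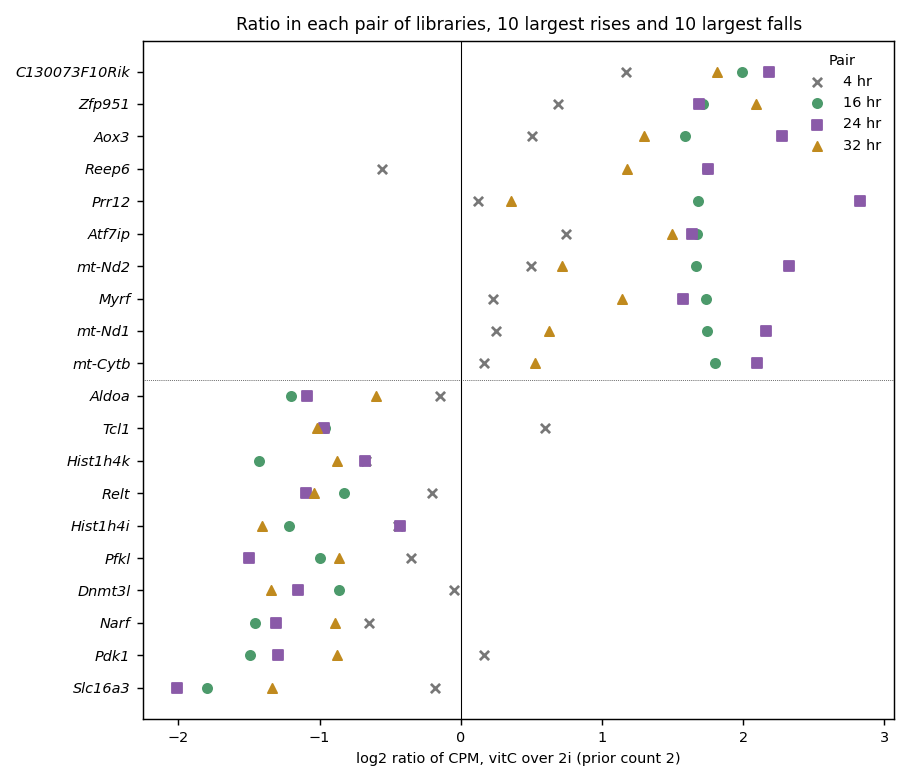
Log2 ratio of vitC to 2i (horizontal axis, CPM with a prior count of 2) in each pair of libraries for the 10 largest rises (top) and the 10 largest falls (bottom), with symbols for the 4, 16, 24, and 32 hr pairs. All 3 later pairs share a direction in each gene, and the 4 hr pair (crosses) has the opposite direction in Reep6, Tcl1, and Pdk1.

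Several of the genes whose call held whichever pair was left out belong to no list, and they are named here after their values were seen. Crebbp, the histone acetyltransferase CBP, was at 28.4, 41.4, and 27.1 CPM in 2i and at 70.4, 103, and 47.0 CPM with vitC (log2 fold change 1.14, adjusted p = 0.0056). Brpf3, a scaffold of histone acetyltransferase complexes, was at 24.0, 27.5, and 23.0 CPM and at 67.0, 79.9, and 39.8 CPM (1.28, adjusted p = 0.0057). Anp32b, a histone chaperone, had a log2 fold change of 0.95 (adjusted p = 0.0057) and Ulk1, a kinase that starts autophagy, of 0.88 (adjusted p = 0.011). Igfbp2, which binds insulin-like growth factors, fell from 591, 573, and 799 CPM to 349, 312, and 458 CPM (-0.81, adjusted p = 0.0077). Below 5 CPM, Ankrd1, a muscle ankyrin repeat protein, was at 0.888, 0.624, and 0.594 CPM in 2i and at 6.81, 6.61, and 6.61 CPM with vitC (3.22, adjusted p = 0.0041). Serpina3m, a serine protease inhibitor, had the largest fitted rise (4.51, adjusted p = 0.0090), from 0.313, 0.078, and 0 CPM to 4.20, 2.98, and 2.43 CPM, and its size depends on the prior count. In all of these the groups did not overlap.

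Signalling lists had 1 to 3 called members each, and none of these passed with the Lars2 covariate. Over all genes tested, 2.6% were called. Of 16 Wnt genes, the feedback gene Axin2 (0.78, adjusted p = 0.010) and the transcription factor Tcf7 (0.94, adjusted p = 0.011) were called higher and Ccnd1, cyclin D1, lower (-0.62, adjusted p = 0.016), with a median of -0.05. Axin2 was at 51.3, 56.2, and 39.6 CPM in 2i and at 87.2, 109, and 60.6 CPM with vitC, without overlap. Ccnd1 also stood in the list of FGF and ERK genes, where Spred2, an inhibitor of the pathway, was higher (1.10, adjusted p = 0.029) among 15 tested (median -0.29). The median of this list was -0.66, 0.09, and -0.32 at 16, 24, and 32 hr and 0.06 with the Lars2 covariate, so its sign varied. Of 24 p53 targets, Cdkn1a, which encodes the cell cycle inhibitor p21, was higher (0.69, adjusted p = 0.018) and the receptor gene Eda2r lower (-0.54, adjusted p = 0.027), with a median of -0.27. The NRF2 list (27 tested, median 0.01) had 1 called gene, Pgd of the pentose phosphate pathway, at 73.7, 99.2, and 80.9 CPM in 2i and 177, 178, and 119 CPM with vitC (0.89, adjusted p = 0.012). Of the 25 ATF4 and serine synthesis genes (median -0.28) only Ddit4 was called.

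Chromatin and other lists held few called genes, and of all genes tested 2.08% were called higher and 0.526% lower. Among 31 Polycomb genes (median 0.12), Pcgf2 (0.79, adjusted p = 0.031) and Bcor (0.76, adjusted p = 0.035), both of Polycomb repressive complex 1, were called higher, and neither passed with the Lars2 covariate. Of 346 tested zinc finger genes with a Zfp name (median 0.06), 6 were called higher and 1, Zfp42, lower, both below the shares of all genes. Of the 7, Zfp703 passed with the Lars2 covariate. The 6 called higher were Zfp951, Zfp703 (1.43), Zfp609 (1.14), Zfp462 (0.89), Zfp809 (0.75), which represses retroviral sequences, and Zfp229 (0.55). Of 76 ribosomal protein genes, 63 lay below 0, and the median was -0.18. By pair the median was -0.04, -0.48, and -0.09 at 16, 24, and 32 hr, and with the Lars2 covariate it was -0.48. Rps14 (-0.65, adjusted p = 0.014) and Rpl15 (-0.48, adjusted p = 0.045) were called lower, and neither passed with the covariate. Cholesterol synthesis (24 tested, median -0.07), fatty acid synthesis (14, 0.10), lysosome (30, -0.07), and the response to unfolded proteins (19, -0.05) had 0 called genes. Among their abundant members, Msmo1 was at -0.27, Scd2 at -0.01, Lamp1 at 0.05, and Canx at -0.13, while Fasn, the fatty acid synthase, was at 0.44 (adjusted p = 0.081).

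Col1a1, the main chain of type I collagen, was at 120.0, 153, and 104 CPM in 2i and at 234, 416, and 165 CPM with vitC, without overlap (log2 fold change 1.02, SE 0.15, adjusted p = 0.0080). Over all genes tested 2.08% were called higher and 0.526% lower. Col1a1 was the only called gene among 62 of the extracellular matrix (median 0.04). It is also a marker of fibroblasts, of which 7 of 8 were tested, all 7 lay above 0, and 1 was called. The summed level of the 8 markers was 278 to 380 CPM in 2i and 439 to 690 CPM with vitC, and no marker was at 0 in all 6 libraries. Dcn, which defines fibroblasts, was at 0.313 to 2.26 CPM in 2i and 1.59 to 3.01 CPM with vitC, and the part of such cells in the rise of Col1a1 was not tested. In bulk RNA, fewer cells of a type and less RNA per cell cannot be told apart. Markers of primitive endoderm (6 tested, median 0.32), trophoblast (6, -0.08), neural cells (3, -0.09), mesoderm (2, -0.07), and the 2C-like state (3, -0.32) had 0 called genes, with summed levels of 114 to 138 CPM against 132 to 157 CPM, 416 to 506 CPM against 367 to 551 CPM, 266 to 276 CPM against 217 to 313 CPM, 11.1 to 14.4 CPM against 9.96 to 11.9 CPM, and 8.03 to 8.83 CPM against 5.12 to 8.98 CPM.

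Of the 381 called features 357 were protein-coding genes (291 higher and 66 lower). Among the others, 12 were identifiers absent from the annotation used for names, 6 in each direction. The largest noncoding or unnamed rises were ENSMUSG00000093337 (5.69, 157, and 64.6 CPM in 2i and 487, 1268, and 193 CPM with vitC), Gm20548, and ENSMUSG00000083696, and the largest falls were Snord4a, Rny3, and Gm6023. Rny3, a Y RNA transcribed by RNA polymerase III, was at 299, 184, and 134 CPM in 2i and at 83.0, 63.5, and 94.2 CPM with vitC (log2 fold change -1.29, adjusted p = 0.012). ENSMUSG00000093337 was lowest in the 2i library at 16 hr, where the share of reads on Lars2 and its companions was also lowest. With that share as a covariate in edgeR, it did not pass (2.11, adjusted p = 0.078), nor did Gm20548 (0.31) or ENSMUSG00000083696 (0.32). Of the falls, Snord4a (adjusted p = 0.62), Rny3 (0.064), and Gm6023 (0.98) did not pass either, and Gm6023 was at -0.24. The 116 tested snoRNAs had a median of -0.47 and 1 called gene, and the 95 long intergenic RNAs a median of 0.10 and 1 called gene. Over all genes tested 2.6% were called.

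The called rises came from longer genes. The median merged exon length was 6488 bases for protein-coding genes called higher, 2837 bases for those called lower, and 4502.5 bases for all tested. Their median GC content was 53.1% and 53.4%, against 49.9% for all tested. With GC content and length as offsets in the fit, 375 genes were called, 280 higher and 95 lower, and 306 of the 381 were among them.

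**Figure D5:**
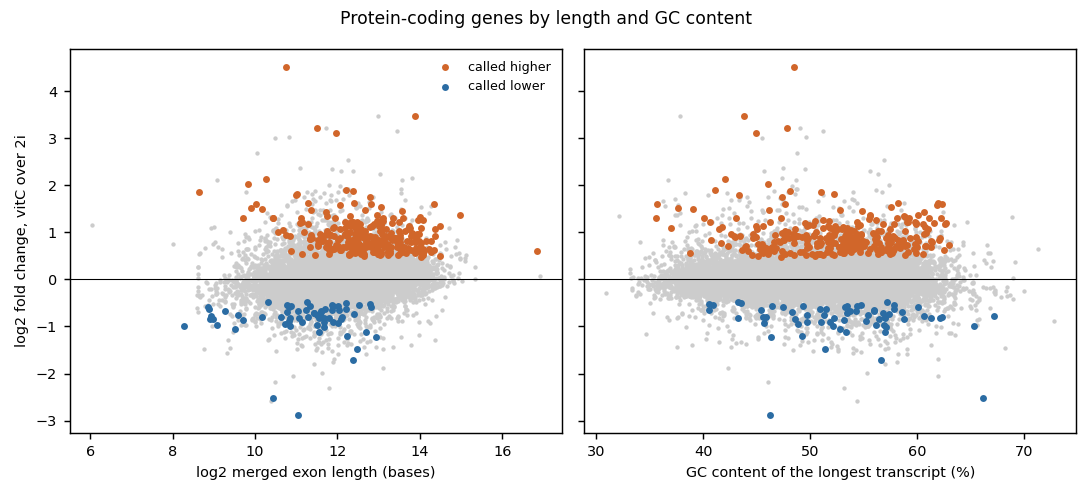
Log2 fold change of vitC over 2i (vertical axis) of protein-coding genes against merged exon length on a log2 scale (left) and GC content (right), with genes called higher in orange and lower in blue. The orange points reach toward longer genes (median 6488 bases) than the blue points (2837 bases).

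By hour, the called genes differed most at 24 hr (178 genes had their largest ratio there) or 16 hr (149), and least often at 32 hr (54). The median log2 ratio of the genes called higher was 0.93, 0.99, and 0.59 at 16, 24, and 32 hr, and that of the genes called lower was -0.91, -0.80, and -0.61. The vitC libraries at 16 and 24 hr also had the lowest totals. After random thinning of every library to the total of the shallowest, 387 genes were called, including 324 of the 381. In the 4 hr pair, which the test did not use, the medians were 0.11 and -0.14. There 195 of the 304 genes called higher (64.1%) lay above 0, as did 51.1% of all tested genes, and 53 of the 77 called lower (68.8%) lay below 0, as did 48.9% of all. Whether the vitC effect from 16 to 32 hr differed from that at 4 hr was tested in edgeR by an interaction on all 8 libraries, and 0 of 14931 genes passed, with 1014 at an unadjusted p under 0.05 and 1 gene in DESeq2. For Slc16a3 the difference between the later effect and that at 4 hr was -1.53 on the log2 scale (adjusted p = 0.48). The smaller medians at 4 hr are thus a description, and no gene's difference from 4 hr passed in that edgeR fit.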

How the data were processed

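RNA-seq libraries from E14 ESCs were depleted of ribosomal RNA, and the authors deposited raw counts per Ensembl gene, which the submitters' processing notes tie to GSNAP, HTSeq, and the mouse build NCBIM37 (mm9). No normalization had been applied to the deposited counts, and whether the counting used strand is not given in the sources used here. Groups and times came from the sample labels, and the lane from the names of the deposited tables. Of 37263 identifiers 32604 were named, with biotype, merged exon length, and GC content, from GENCODE M21. Its coordinates were not used, and those of the promoter windows belong to GRCm38.p6.

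Counts were analysed in R 4.3.3 with edgeR 4.0.16. Genes that reached 1 CPM in 2 or more of the 6 libraries were scaled by TMM factors and fitted with time point and treatment, which leaves 2 residual degrees of freedom. The quasi-likelihood test was adjusted by Benjamini-Hochberg at a threshold of 0.05. CPM per library used the TMM factors, and ratios of a pair used a prior count of 2. Floors cover counting error only, whereas the standard errors come from the fit and include the spread between pairs, moderated across genes. Where the fold of a gene under the floor in one treatment is fitted, it depends on the prior count. On simulated counts for this comparison, with 14640 genes, 94% of the genes changed 2-fold and 100% of those changed 4-fold were called, with 17 false calls. The simulation gave all genes the same dispersion and each gene the same mean level in all 6 libraries before the change. It held no difference between time points or in the Lars2 share, and changed only genes with a mean of 5 CPM or more. Its rates therefore need not hold for the real counts. No libraries held identical values.

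The members and gene lists were chosen with earlier results of these data known. Genes were named by a rule: the 10 largest rises and falls among called protein-coding genes with a mean level of 5 CPM or more and one direction in all 3 pairs, the called members of each list (at most 4) or its most abundant members, the DNA methylation and H3K9 genes, and the 3 largest noncoding or unnamed features each way. Some genes that the rule covers are not reported here. The further called glycolysis, histone, and zinc finger genes, Hk2, Pkm, Ankrd1, Serpina3m, Nanog, Pou5f1, Sox2, Dcn, and mt-Co1 were named after their values were seen. Alternative fits used DESeq2 1.42.0, RLE or upper quartile scaling, other filters, the omission of each pair or of the block, all 8 libraries, thinning, a GC and length correction, and the Lars2 features removed or as a covariate.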

Additional observations from a re-analysis of the deposited data

How the results depend on the processing

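Between 2i and vitC the number of called genes moved with the setting. It was 1070 without the filter on low counts (721 higher and 349 lower), 23 without the time block (18 and 5), 25 with all 8 libraries (16 and 9), and 49 with the share of Lars2 features as a covariate (41 and 8). With 1 pair left out it ranged from 46 to 726, from 35 to 527 for genes called higher, and from 11 to 199 for genes called lower. The other 7 settings gave 360 to 480. The test of the later against the 4 hr effect gave 0 genes in edgeR, 1 in DESeq2, 104 without the filter, and 1 to 11 with 1 later pair left out. In each alternative the genes of the 381 that had a value kept their direction. Of 1060 values of 76 called genes named here, 744 stayed past the threshold, 316 did not, and 0 turned. Among genes that were not called, Dnmt3a turned to -0.0445 with all 8 libraries, -0.13 with the covariate, and -0.22 with the GC and length offsets, and ranged from -0.0771 to 0.0677 with 1 pair left out. Uhrf1 turned to -0.0827 with the covariate and ranged from -0.0513 to 0.085 with 1 pair left out. The cause of these moves was not tested. Without 1 pair, or with the covariate, the fit has 1 residual degree of freedom less, and fewer calls there do not by themselves show a smaller effect. The labels give no replicate number, and the pairing by time point is already the block of the main test. Counting error limits genes near the floor of 0.163 to 0.631 CPM.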
